A study of Mus musculus with 5 samples.

Results

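Neutrophil-attracting chemokines of the CXCR2 ligand family were followed in tumour cells of the mouse prostate. The family was taken as 6 genes, Cxcl1, Cxcl2, Cxcl3, Cxcl5, Cxcl15 and Ppbp, and all 6 were among the 18193 genes measured. Every probe set annotated with 1 of these symbols alone was used, which gave 9 of the 45037 probe sets on the array, namely 3 for Cxcl1, 2 for Cxcl15 and 1 for each of the other 4 genes. The family was selected on the genotype difference of some of its members in these same arrays (Cxcl1, Cxcl2 and Cxcl15), so that difference is described here without a test and supports nothing. Signals were log2 values of Affymetrix mouse arrays, on which a step of 1 is a doubling, and differences were taken between arrays. Levels of different probe sets depend on their probes, so a level under the median of all probe sets is given only as a sign that a probe set is dim.

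Tumours were taken from C57BL/6 mice of 2 genotypes, dissociated on ice and enriched for epithelial tumour cells with beads that bind the surface protein Epcam. In the genotype called nTKO, the Probasin driver, which is active in prostate epithelium, deletes floxed Pygo2 together with floxed alleles that include Smad4. In the genotype called nDKO, the same driver deletes the same alleles except Pygo2. By the labels, all the mice therefore carry the Smad4 deletion, and no mouse without a deletion was in the series. There were 2 nTKO mice, 31.43 and 16 weeks old, and 3 nDKO mice, 15.86, 10.71 and 10.71 weeks old, with 1 array per mouse.

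Chemokines of this family carry a short glutamate-leucine-arginine motif ahead of their paired cysteines and draw neutrophils out of the blood by binding Cxcr2, a G protein-coupled receptor. Epithelial and myeloid cells make most of them on demand, downstream of interleukin 1, tumour necrosis factor and interleukin 17, through the transcription factor NF-kappa-B. In mouse prostate tumours that lack Smad4, Cxcl5 from the tumour cells has been described as an attractant of Cxcr2-bearing myeloid cells. Pygo2 encodes a chromatin reader that binds methylated histone H3 and helps beta-catenin to activate genes. The comparison of nTKO with nDKO sets tumour cells of mice labelled as lacking it beside those of mice that keep it. Both nTKO mice were older than every nDKO mouse, 1 of them only slightly. Between these groups the part of Pygo2 loss and the part of age cannot be told apart.

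The members and Pf4 lie on mouse chromosome 5, in the order Cxcl5, Ppbp, Pf4, Cxcl3, Cxcl15, Cxcl1 and Cxcl2. Whether other genes lie between them was not examined. The last 110 bases before the annotated start are shown here for 5 members, which an NF-kappa-B motif, given in capitals, divides. No promoter sequence was found for Cxcl5, so it was not searched for the motif. The sequences are those of RefSeq on GRCm38.p6, plus strand, 5′ to 3′, for Cxcl1 (chr5:90891135-90891244), Cxcl2 (chr5:90903789-90903898), Cxcl3 (chr5:90785991-90786100), Cxcl15 (chr5:90794424-90794533) and Ppbp (chr5:90768408-90768517).
Cxcl1: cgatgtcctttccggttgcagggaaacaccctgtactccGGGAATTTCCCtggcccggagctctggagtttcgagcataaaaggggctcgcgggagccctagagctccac
Cxcl2: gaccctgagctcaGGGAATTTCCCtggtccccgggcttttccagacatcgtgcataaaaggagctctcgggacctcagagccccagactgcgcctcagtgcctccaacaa
Cxcl3: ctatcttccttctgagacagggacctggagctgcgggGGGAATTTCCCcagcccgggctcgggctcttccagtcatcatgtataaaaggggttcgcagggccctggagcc
Cxcl15: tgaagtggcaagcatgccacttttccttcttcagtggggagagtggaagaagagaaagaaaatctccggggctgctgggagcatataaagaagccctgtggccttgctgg
Ppbp: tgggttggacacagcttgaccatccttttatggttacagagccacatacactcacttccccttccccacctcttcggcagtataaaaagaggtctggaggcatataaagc

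Cxcl1, Cxcl2 and Cxcl3 held the same run, GGGAATTTCCC, in which the NF-kappa-B consensus matches once on each strand with an overlap. It ended 61 bases before the start of Cxcl1, 87 bases before that of Cxcl2 and 63 bases before that of Cxcl3. These 3 genes are close relatives, so their windows are not independent of each other. In windows from 250 bases before the start to 50 bases after it, the consensus was found on either strand in 8.49% of 32544 RefSeq promoters, and its form GGGAATTTCC, picked after it was seen in Cxcl1, in 0.0891%. Neither Cxcl15 nor Ppbp had a match to the consensus in that window. CTTTGA, a core of the site bound by the TCF partners of beta-catenin, was present on either strand in 16.0% of the promoters and, among these 5, in Cxcl15 alone, on the minus strand from 142 to 137 bases before the start. A match describes the letters only.

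The arrays were checked before the chemokines were read. Pygo2 had a signal of 7.30 and 6.35 in nTKO cells, against 8.65, 8.62 and 8.72 in nDKO cells, lower in both nTKO mice, as labelled. Smad4 gave no sign of its deletion: its brightest probe set had 9.76 and 10.37 in nTKO cells and 9.63, 9.88 and 9.88 in nDKO cells, and its other 2 probe sets lay between 8.42 and 9.81 in nTKO cells and between 8.14 and 9.33 in nDKO cells. The files do not place these probes inside or outside the deleted part, and with no mouse that kept the gene the deletion could not be checked. Epcam lay between 12.94 and 13.48 on all 5 arrays. nTKO 1 and nDKO 1, the oldest mouse of each genotype, stood apart: Krt10, a keratin of cornifying epithelium, measured 13.04 in nTKO 1 and 13.03 in nDKO 1, against 6.71 to 6.93 on the other 3 arrays. Over all probe sets, limma called 0 at an adjusted p under 0.05, which is 0% of 45037, with 1710 at an unadjusted p under 0.05 and a smallest adjusted p of 0.799.

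The members fell into 3 patterns. Cxcl1 and Cxcl15 had both nTKO mice above all nDKO mice, with nTKO 2 on top. Cxcl2 also had both nTKO mice above all nDKO mice, but was highest in nTKO 1 and lowest in nDKO 1. Cxcl3, Cxcl5 and Ppbp overlapped between the genotypes and were high in nTKO 1 and nDKO 1, the arrays with high Krt10. The nTKO mean was the higher one for 8 of the 9 probe sets, and both nTKO arrays lay above all nDKO arrays for 5 of the 9, against 7.02% of all probe sets. This contrast was used to select the members, so nothing is read from the count. The median difference was 0.685 over the 9 probe sets and 0.017 over all probe sets. By the adjusted p, 0 of the 9 were called. Where a fold of 2 or more was required beside an unadjusted p under 0.05, 1 of the 9 was taken, the brightest Cxcl1 probe set, against 0.0511% of all probe sets on the higher side.

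**Figure D1:**
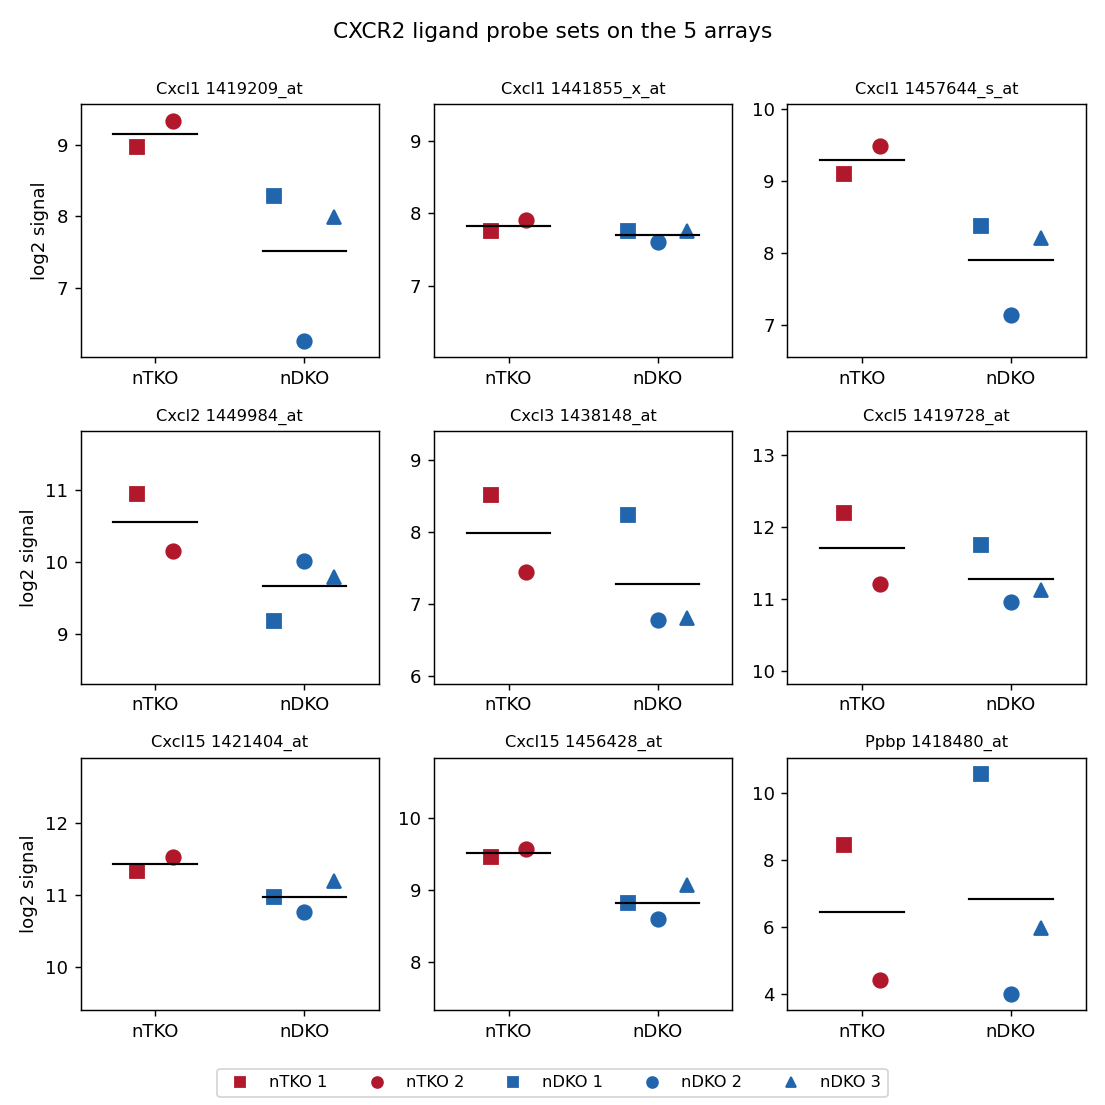
Log2 signal of each CXCR2 ligand probe set (1 panel each, y axis) in nTKO and nDKO tumour cells (x axis). Each point is 1 mouse, squares are the arrays with high Krt10 (nTKO 1 and nDKO 1), and horizontal lines are group means. The nTKO points lie above all nDKO points for 2 of the 3 Cxcl1 probe sets, for both of Cxcl15 and for Cxcl2, while Cxcl3, Cxcl5 and Ppbp follow the squares.

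Cxcl1, also called KC, is a neutrophil attractant that epithelium makes quickly under inflammatory cytokines. Its brightest probe set (1457644_s_at) had a signal of 9.10 and 9.48 in nTKO cells, against 8.37, 7.14 and 8.21 in nDKO cells. The groups did not overlap, the gap between the lower nTKO mouse and the highest nDKO mouse was 0.73, and nDKO 2 was low on its own. The means were 9.29 ± 0.27 (SD, n = 2) in nTKO cells and 7.91 ± 0.67 (SD, n = 3) in nDKO cells, a log2 difference of 1.38 (SE 0.44) or a linear fold of 2.61.

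A second Cxcl1 probe set (1419209_at) gave 8.96 and 9.33 in nTKO cells, against 8.28, 6.27 and 7.99 in nDKO cells. The mice took the same order as on the first probe set, with nTKO 2 highest and nDKO 2 lowest. The log2 difference was 1.63 (SE 0.70), and it was 1.01 without nDKO 2, the mouse with the lowest signal. The third probe set (1441855_x_at), whose suffix marks probes that can match more than their target, hardly moved, at 7.75 and 7.91 in nTKO cells and 7.75, 7.61 and 7.76 in nDKO cells. Its log2 difference was 0.12 (SE 0.087), and here the groups overlapped. Cxcl1, Cxcl2 and Cxcl3 are alike in sequence, and whether their probe sets take up RNA of each other was not tested.

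Cxcl15, or lungkine, was first known as a chemokine of mouse lung epithelium that recruits neutrophils, and its receptor is less settled than those of its relatives. Its brighter probe set (1421404_at) had a signal of 11.33 and 11.53 in nTKO cells, against 10.97, 10.77 and 11.19 in nDKO cells. Its dimmer probe set (1456428_at) had 9.46 and 9.57 in nTKO cells, against 8.82, 8.60 and 9.07 in nDKO cells. Both probe sets ordered the 5 mice in the same way, from nTKO 2 and nTKO 1 to nDKO 3, nDKO 1 and nDKO 2.

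The log2 differences of Cxcl15 were 0.45 (SE 0.15) and 0.69 (SE 0.16), smaller than that of Cxcl1 but with less spread within each genotype. The SD was 0.14 and 0.078 among nTKO mice and 0.21 and 0.24 among nDKO mice. These differences lay between 0.35 and 0.58 for the brighter and between 0.57 and 0.81 for the dimmer probe set in every alternative that was run, including log2 age as a covariate and each mouse left out.

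Cxcl2, also called MIP-2, is a Cxcr2 ligand made by macrophages and neutrophils as well as by epithelium. Its probe set (1449984_at) had a signal of 10.95 and 10.16 in nTKO cells, against 9.18, 10.01 and 9.80 in nDKO cells. The groups did not overlap, but nTKO 2 lay only 0.15 above the highest nDKO mouse. The means were 10.56 ± 0.56 (SD, n = 2) in nTKO cells and 9.66 ± 0.43 (SD, n = 3) in nDKO cells, a log2 difference of 0.89 (SE 0.37). Most of it rested on nTKO 1 and nDKO 1: the difference was 0.50 without nTKO 1 and 0.255 without both. The order of the mice was not that of Cxcl1, since nDKO 1 was the lowest for Cxcl2 and the highest nDKO mouse for Cxcl1.

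Cxcl5, called LIX in the mouse, is a chemokine of epithelium. Its probe set (1419728_at) had a signal of 12.20 and 11.21 in nTKO cells, against 11.75, 10.96 and 11.13 in nDKO cells. The oldest mouse of each genotype was the higher one, by 0.99 among nTKO mice and by at least 0.62 among nDKO mice. The log2 difference between the genotypes was 0.425 (SE 0.41), smaller than either of these gaps, and its sign depended on the mice. It was -0.07 without nTKO 1, 0.92 without nTKO 2, 0.66 without nDKO 1 and 0.265 without nDKO 2. It was -0.53 when log2 age entered the fit, and nTKO 2, at 16 weeks, lay 0.54 below nDKO 1, at 15.86 weeks (-0.54 as nTKO minus nDKO).

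Cxcl3 is a close relative of Cxcl1 and Cxcl2 and likewise a ligand of Cxcr2. Its probe set (1438148_at) had a signal of 8.51 and 7.45 in nTKO cells, against 8.24, 6.78 and 6.80 in nDKO cells. It ordered the 5 mice exactly as Cxcl5 did, with nTKO 1 and nDKO 1 on top, and nDKO 1 lay 1.44 above the other nDKO mice. The log2 difference was 0.71 (SE 0.63). It was 0.18 without nTKO 1, 1.24 without nTKO 2, 1.19 without nDKO 1, 0.46 without nDKO 2 and 0.47 without nDKO 3, and -0.65 when log2 age entered the fit.

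Ppbp encodes platelet basic protein, the precursor of Cxcl7, which megakaryocytes make and platelets store. Its probe set (1418480_at) varied most, with a signal of 8.44 and 4.44 in nTKO cells, against 10.54, 4.01 and 5.97 in nDKO cells. The range of 6.53 over the 5 arrays compares with 0.30 to 3.06 for the other 8 probe sets. The high values were again those of nTKO 1 and nDKO 1, here with nDKO 1 on top, and the values of nTKO 2 and nDKO 2 lay below the array medians of 4.94 to 4.98. The genotype difference of -0.40 (SE 2.46) was far smaller than the spread within either genotype. It was -2.40 without nTKO 1, 1.60 without nTKO 2, 1.45 without nDKO 1, -1.82 without nDKO 2, -0.84 without nDKO 3 and -5.55 when log2 age entered the fit.

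Platelet markers were read beside Ppbp. Itga2b, the platelet integrin subunit, had 6.36 and 6.22 in nTKO cells and 6.38, 6.29 and 6.32 in nDKO cells. Over the 9 platelet markers measured, the mean log2 signal was 4.98 and 4.93 on the nTKO arrays and 4.96, 4.87 and 4.91 on the nDKO arrays, but 6 of the 9 lay under the median level of all probe sets, where a change would be hard to see. Pf4, the platelet factor gene that follows Ppbp in the order given above, had 7.42 and 7.03 in nTKO cells and 7.99, 6.51 and 7.03 in nDKO cells. It was thus highest in the same 2 mice as Ppbp, with a range of 1.48 over the arrays. The part of platelet RNA in the Ppbp signal was not tested. The 11 squamous markers had mean log2 signals of 9.23 and 6.67 on the nTKO arrays and 10.06, 7.15 and 7.16 on the nDKO arrays, highest in nDKO 1 and next in nTKO 1, as Ppbp was.

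**Figure D2:**
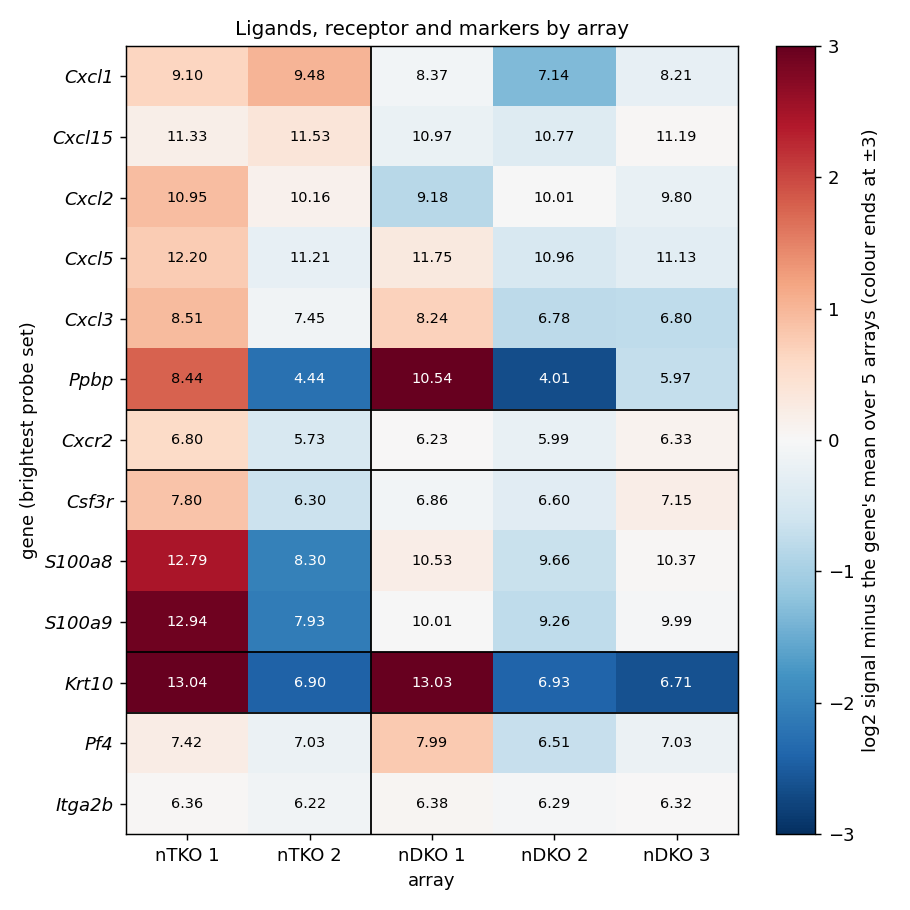
Log2 signal (number in each cell) of the 6 ligands, the receptor Cxcr2, 3 neutrophil markers, Krt10 and 2 platelet genes, in the 2 nTKO and 3 nDKO arrays. Colour is the signal minus the mean of that gene over the 5 arrays. Ppbp, Cxcl3 and Cxcl5 are high where Krt10 is high, Cxcl1 and Cxcl15 are highest in nTKO 2, and the neutrophil markers are highest in nTKO 1 and lowest in nTKO 2.

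The receptors showed no matching pattern. Cxcr2, carried mainly by neutrophils, had a signal of 6.80 and 5.73 in nTKO cells and 6.23, 5.99 and 6.33 in nDKO cells, so the nTKO mice held both the highest and the lowest value. Its log2 difference was 0.082, -0.45 without nTKO 1, 0.62 without nTKO 2 and -0.62 when log2 age entered the fit. Ackr1, a receptor on red cells and venules that binds these chemokines without signalling, had 5.82 and 5.72 in nTKO cells and 5.72, 5.52 and 5.72 in nDKO cells. Cxcr1 was not analysed here.

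Neutrophil markers other than Cxcr2 were mostly highest and lowest in the same mice as Cxcr2. The calgranulin S100a8 had a signal of 12.79 and 8.30 in nTKO cells and 10.53, 9.66 and 10.37 in nDKO cells, and Csf3r, the receptor of the neutrophil growth factor, had 7.80 and 6.30 in nTKO cells and 6.86, 6.60 and 7.15 in nDKO cells. Over the 18 markers measured besides Cxcr2, the mean log2 signal was 7.30 and 5.62 on the nTKO arrays and 6.15, 5.94 and 6.25 on the nDKO arrays. Ties included, 15 of the 18 were highest in nTKO 1 and 12 of the 18 lowest in nTKO 2. Ltf, the granule protein lactoferrin that glandular epithelium also makes, had 13.91 and 13.07 in nTKO cells and 13.92, 13.65 and 13.48 in nDKO cells, with nDKO 1 and nTKO 1 nearly level. The granule genes Mpo, Elane, Camp and Ngp were among 7 markers that lay under the median level of all probe sets. Ly6g was not analysed here.

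Cxcl1 and Cxcl15 were thus highest in the mouse with the lowest neutrophil markers, nTKO 2. Cxcl2, Cxcl3 and Cxcl5 were highest in the mouse with the highest markers, nTKO 1, and Ppbp was highest in nDKO 1. In such bulk samples fewer cells of a type and less RNA per cell cannot be told apart, and S100a8 is also made by stressed epithelium. The part of neutrophil RNA in the signals and differences of the ligands was not tested. Macrophage markers had mean log2 signals of 8.09 and 7.68 on the nTKO arrays and 8.08, 7.43 and 8.67 on the nDKO arrays, an order that none of the 6 ligands shared.

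Genes upstream of the ligands took no common direction. Of 14 cytokines and receptors that induce the family, 9 had a higher and 5 a lower nTKO mean, with a median log2 difference of 0.085, against 0.028 over all genes and 61.0% of all genes on the higher side. Both nTKO arrays lay above all nDKO arrays for 2 of these 14, against 8.13% of genes, and below for 1, against 4.71%. Those above were Tnf (log2 difference 0.125), the cytokine, and Traf3ip2 (0.14), the adaptor of the interleukin 17 receptor. Il17rc, a subunit of that receptor, was below, at 7.76 and 7.64 in nTKO cells and 7.93, 8.09 and 7.91 in nDKO cells (-0.28, SE 0.087).

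Of 15 genes of the NF-kappa-B pathway, 9 had a higher and 6 a lower nTKO mean (median log2 difference 0.12), and 5 of the 15 had both nTKO arrays above all nDKO arrays, against 8.13% of genes. Tnfaip3, a feedback inhibitor that NF-kappa-B itself induces, had a signal of 8.86 and 8.63 in nTKO cells and 7.93, 8.46 and 8.41 in nDKO cells. It was highest in nTKO 1 and lowest in nDKO 1, like Cxcl2, and its log2 difference of 0.48 (SE 0.20) was 0.31 without nDKO 1 and 0.195 without these 2 mice. The kinase Ikbkb (0.18), its regulatory subunit Ikbkg (0.21) and the ligase Traf6 (0.12) differed by less, and Ikbkg was at 0.073 without nTKO 1, 0.34 without nTKO 2 and -0.005 when log2 age entered the fit.

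Among 12 genes that the same signals switch on beside the ligands, 8 had a higher and 4 a lower nTKO mean, the median log2 difference was 0.22, and 3 of the 12 had both nTKO arrays above all nDKO arrays, against 8.13% of genes. These were the acute-phase proteins Saa1 (2.05), Saa2 (1.56) and Saa3 (1.94), while the other 9 genes lay between -0.24 for Ptgs2, the inducible cyclooxygenase, and 0.47 for the chemokine Ccl20. Saa3 had a signal of 11.84 and 9.88 in nTKO cells and 8.21, 9.05 and 9.49 in nDKO cells. Like Cxcl2 it was highest in nTKO 1 and lowest in nDKO 1. Its log2 difference of 1.94 (SE 0.74) was 0.96 without nTKO 1, 2.92 without nTKO 2 and 0.61 without nTKO 1 and nDKO 1. The neutrophil growth factor Csf3 had 6.55 and 5.88 in nTKO cells and 6.94, 6.06 and 6.33 in nDKO cells, with overlapping groups.

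The other CXC chemokines, which act on other receptors, had a higher nTKO mean for all 9 measured, against 61.0% of all genes. Their median log2 difference was 0.19. In none of them were the groups apart, against 8.13% of genes above and 4.71% below, and with so few genes nothing is read from that. Cxcl11, a Cxcr3 ligand named after its values were seen, had the largest difference, at 8.57 and 6.65 in nTKO cells and 5.51, 6.59 and 6.65 in nDKO cells. Its log2 difference of 1.36 was 0.40 without nTKO 1 and 2.32 without nTKO 2. In none of these lists did a gene pass the limma adjusted p over all probe sets.

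**Figure D3:**
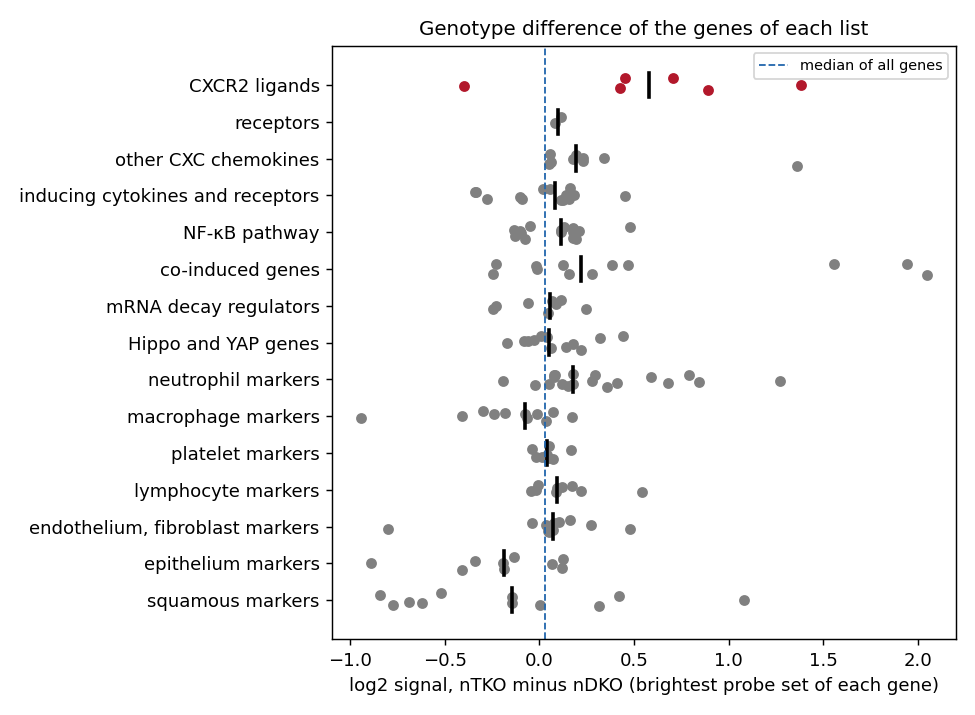
Log2 difference, nTKO minus nDKO, of the brightest probe set of each gene (points) in 15 lists (rows). Black bars are list medians and the dashed line is the median of all genes, 0.028. The ligand list has a median of 0.58, with Ppbp alone below 0. It was selected on this difference, so nothing is read from its median. The medians of the receptors, of the inducing cytokines and of the NF-kappa-B pathway lie between 0.085 and 0.12.

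The members were also read with mice left out and with age in the fit. The differences of both moving Cxcl1 probe sets, of Cxcl15 and of Cxcl2 were above 0 in every alternative. They ranged from 1.0 to 1.81 for the brightest Cxcl1 probe set and from 0.255 to 1.29 for Cxcl2. These are the probe sets whose nTKO arrays all lay above the nDKO arrays. Leaving mice out could therefore not change their sign, and nothing is read from it. The differences of Cxcl3, Cxcl5 and Ppbp were below 0 once age entered the fit. Within each genotype the oldest mouse was also the one with high Krt10, so that age and what else sets these mice aside cannot be told apart there. The mice nTKO 2, at 16 weeks, and nDKO 1, at 15.86 weeks, were of like age but differed in genotype. Krt10 had 6.90 in nTKO 2 and 13.03 in nDKO 1, and Ppbp had 4.44 and 10.54. What sets these 2 mice apart was not tested. Without nTKO 1 and nDKO 1, nTKO 2 lay above nDKO 2 and nDKO 3 for 8 of the 9 probe sets, all but Ppbp. The share over all probe sets was 25.9%. This split was chosen after seeing the data and leaves 1 nTKO mouse. The members were selected on the genotype contrast, so nothing is read from this count either.

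**Figure D4:**
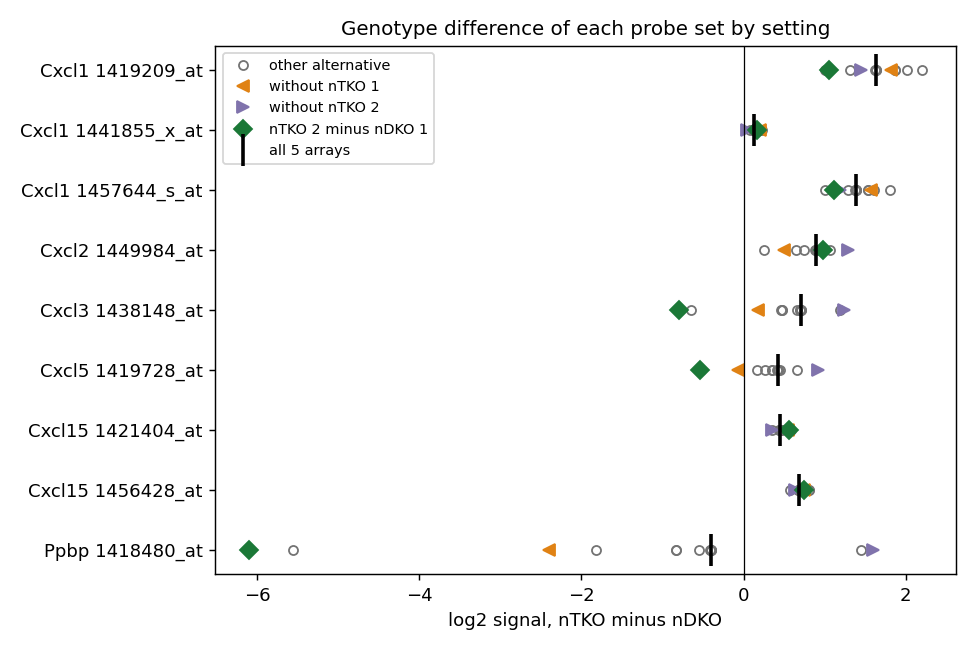
Log2 difference, nTKO minus nDKO, of each CXCR2 ligand probe set (rows) with all 5 arrays (black bar), without 1 of the nTKO mice (triangles), for nTKO 2 minus nDKO 1, 2 mice of like age (diamond) and in the other alternatives (open circles). Cxcl1, Cxcl15 and Cxcl2 stay at or above 0.043, while Cxcl3, Cxcl5 and Ppbp spread to both sides of 0. Where the genotypes did not overlap, leaving mice out could not change the sign.

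To see which other genes took the pattern of a member, genes were ranked by a root mean square difference. It was taken between log2 signals centred on each gene's own mean over the 5 arrays. Predicted genes, with names of the Gm, Rik and LOC kinds, were left out of the ranking. For Cxcl5 the closest were Myc (0.092), the proto-oncogene, the NF-kappa-B repressing factor Nkrf (0.11), Klk8 (0.13), a kallikrein protease of skin, the calcium sensor Ncs1 (0.14) and the ubiquitin-conjugating enzyme Ube2e2 (0.14). For Cxcl2 they were the integrin subunit Itga8 (0.094), the phospholipase Plcb4 (0.16), ceruloplasmin, Cp (0.17), which is a secreted acute-phase protein, the glutamate transporter Slc1a1 (0.19) and Arhgap6 (0.21). For Cxcl1 no ranked gene was as near. The closest were Iglv1 (0.27), an immunoglobulin light chain segment, Calml4 (0.33), Serpinb11 (0.34), Wdfy1 (0.35) and the adhesion molecule Chl1 (0.37). With only 5 arrays many genes can lie near any pattern.

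By the same measure, Cxcl15 was the member nearest to Cxcl1 (0.57) and took rank 57 among 16436 genes, ahead of Cxcl5 at rank 663 and Cxcl3 at rank 836. The member nearest to Cxcl5 was Cxcl3 (0.31), at rank 651. Cxcl2 stood further off: its nearest member was Cxcl15 (0.50), at rank 2837. Cxcl15 changed less, with a range of 0.76 against 1.77 for Cxcl2, and ordered the mice differently, so that value shows no shared pattern. Cxcl2 was 0.79 from Cxcl1 and 0.81 from Cxcl3, which share the NF-kappa-B run shown above with it. Ppbp was 2.13 from Cxcl5 and farther from Cxcl1 and Cxcl2, but the measure takes in the size of the changes, and Ppbp had a range of 6.53 with the same 2 mice on top as Cxcl5.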

How the data were processed

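Total RNA of Epcam bead-isolated prostate tumour cells of 5 mice was labelled with biotin and hybridised to single-channel Affymetrix arrays. The deposited values are log2 signals, made with RMA in the Transcriptome Analysis Console, per the submitters' processing notes, and rounded to 2 decimals. RMA corrects background, quantile-normalizes and summarises probe sets, so a change in most genes at once is removed. Scanner files were not used here, and the number of arrays limits the precision.

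Gene names came from the platform annotation, in which 34945 of 45037 probe sets had 1 symbol, 932 several and 9160 none. Lists used the probe set with 1 symbol and the highest mean per gene. nTKO was compared with nDKO in limma 3.58.1 (R 4.3.3), using lmFit and eBayes (intensity trend on) over all probe sets, two-sided, with Benjamini-Hochberg adjustment and a threshold of 0.05. The fit was tested on simulated data. SE values are those moderated by eBayes. Genes named from a list were up to 4 whose groups did not overlap, by smallest unadjusted p, besides members, receptors, Pygo2 and a few markers. Csf3, Pf4, Ltf, Ptgs2, Ccl20, Cxcl11, Yap1, Zfp36, Dcn and granule genes were named beyond that rule after their values were seen. Members, lists and most alternatives were chosen with earlier results of these data known. Alternatives were a filter at the median level of 4.97, quantile normalization, median centring, no trend, the replicate number as a block, log2 age as a covariate, 1 probe set per gene, each mouse left out, both arrays with high Krt10 left out, and a pair of like age. Samples are separate mice. Promoter sequences were RefSeq's, found for 5 of the 6 members. A further floxed allele that the labels give for all the mice is not reported here.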

Additional observations from a re-analysis of the deposited data

How the results depend on the processing

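Under all 13 alternatives with a fit, limma called 0 probe sets at an adjusted p under 0.05. The count at a 2-fold difference or more and an unadjusted p under 0.05, 51 probe sets on all arrays, was 90 with the replicate block, 97 without nTKO 1 and nDKO 1, 587 when log2 age entered the fit, and 24 with 1 probe set per gene, where fewer features were tested, and it ranged from 43 to 285 with 1 mouse left out, with 100 without nTKO 1 and 285 without nTKO 2. The replicate numbers are not stated to pair mice: deviations from the group means correlated at 0.38 between nTKO 1 and nDKO 1 and at 0.31 between nTKO 2 and nDKO 2. With the block, Cxcl1 (1457644_s_at) was at 1.54 and Cxcl2 at 0.96. Both nTKO arrays lay above all nDKO arrays for 5 member probe sets, against 7.02% of all probe sets. Without nTKO 1 and nDKO 1, an alternative chosen after seeing the data, the count was 8, against 25.9% of all probe sets. Fewer arrays overlap less often, so nothing is read from the rise. Of 123 member values under alternatives, 115 lay within 1 pooled SD of the value on all arrays. The filter, the fit without trend and 1 probe set per gene cannot change a difference, and the block repeats the fit without nDKO 3. Nothing is therefore read from this count. The pooled SD of Ppbp was 3.19, so its values of -2.40 and 1.60 counted as within it, as did -0.07 for Cxcl5. Outside 1 pooled SD were Cxcl3, Cxcl5 and Ppbp with log2 age and in the pair of like age (-0.79, -0.54 and -6.10 in that pair). Cxcl2 (0.255) and the third Cxcl1 probe set (0.225) were also outside it without nTKO 1 and nDKO 1. The cause of these shifts was not tested.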

Other observations

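Hippo pathway genes and regulators of chemokine mRNA decay were also read in the same arrays. Of 12 Hippo and YAP genes, 8 had a higher and 4 a lower nTKO mean, with a median log2 difference of 0.052. Over all genes, 61.0% had a higher nTKO mean. Ccn2, a target of YAP, had a signal of 7.41 and 7.49 in nTKO cells and 6.64, 7.26 and 7.13 in nDKO cells (log2 difference 0.44, SE 0.21, at 0.255 without nDKO 1 and 0.76 when log2 age entered the fit), and Yap1 itself had 9.67 and 9.63 in nTKO cells and 9.49, 9.71 and 9.72 in nDKO cells. Of 8 genes that control the decay or stability of short-lived transcripts such as these chemokines, 5 had a higher and 3 a lower nTKO mean (median 0.058). In none were the groups apart, against 8.13% of genes above and 4.71% below, and with so few genes nothing is read from that. Zfp36, which binds and destabilises such transcripts, had 9.11 and 8.61 in nTKO cells and 8.88, 8.90 and 8.98 in nDKO cells. Lymphocyte markers, of which 5 of 9 lay under the median level of all probe sets, had mean log2 signals of 4.56 and 4.47 on the nTKO arrays and 4.31, 4.41 and 4.44 on the nDKO arrays. Endothelial and fibroblast markers, of which 9 of 11 lay under that level, had 4.36 and 4.50 on the nTKO arrays and 4.29, 4.45 and 4.43 on the nDKO arrays, and the matrix proteoglycan Dcn among them had 6.41 and 9.52 in nTKO cells and 7.87, 9.39 and 9.03 in nDKO cells.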
